A study of Mus musculus with 11 samples.

Results

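Rbfox1, Rbfox2, Rbfox3, Nova1, Nova2, Elavl2, Elavl3, Elavl4, Celf4 and Ptbp2 encode RNA-binding and splicing factors that are enriched in, or characteristic of, neurons. These 10 genes were taken by symbol from the 39179 genes of a table of RNA-seq read counts, as a sign of neuronal maturation. All 10 had a row, and all 10 passed the filter on low counts. The libraries were made from GFP-positive cells sorted from CD1/Swiss mouse brains at postnatal day 2, out of the V-SVZ, a germinal layer that lines the lateral ventricles. The 5 KO libraries carried Gsh2-Cre, a floxed and a null (KO) allele of Zeb2, and RCE, a Cre-dependent GFP reporter. The 6 Ctrl libraries carried Gsh2-Cre, a floxed and a wild-type allele of Zeb2, and the same reporter. Zeb2 encodes a zinc finger transcription factor. Both groups hold Cre and a floxed allele, so Ctrl cells with a recombined allele keep 1 working copy, and the null allele of the KO animals is present outside the sorted lineage too. Cre from Gsh2 marks descendants of the ventral telencephalic progenitors that use this homeobox gene, which is a mixture of progenitors, young neurons and glia and not 1 cell type. Nothing in the labels states whether libraries stem from separate animals, and p-values therefore measure a spread among libraries that may be technical.

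Many splicing factors of neurons are switched on as progenitors leave the cell cycle, and they change which exons enter the mRNAs of ion channels, synaptic proteins and the cytoskeleton. Rbfox proteins bind UGCAUG and promote or block an exon according to the side on which they sit. Nova proteins bind clusters of YCAY. The neuronal Elavl (Hu) proteins bind U-rich and AU-rich elements and act on splicing, stability and translation, while Ptbp2 binds CU-rich stretches and takes over from Ptbp1 as neurons are born. The Rbfox3 protein is the antigen NeuN, a marker of mature neurons. The values here are counts per gene, so they measure the amount of each mRNA and not the splicing of its targets.

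Total counts ran from 6833981 to 13073505 per library. Levels are CPM, the counts of a gene scaled to library size with TMM factors, and differences were tested with edgeR's quasi-likelihood test over 14104 genes, with Benjamini-Hochberg adjusted p-values and a threshold of 0.05. Zeb2 itself stood at 213 to 365 CPM in the KO libraries and 154 to 280.3 CPM in the Ctrl libraries (log2 fold change 0.35, SE 0.165, adjusted p = 0.294). A count over the whole gene includes exons outside the deleted part, so it does not check the genotype, and directions rest on the labels. Counts of 4 Y-linked genes were 0 in all 5 KO libraries and in Ctrl 4 and Ctrl 5, and 763 to 2716 in the other 4 Ctrl libraries, so sex is unbalanced between the groups. None of the 10 genes lies on a sex chromosome, which does not separate sex from genotype in their levels. The cells held the 15 young neuron genes at a sum of 10643 to 12909.9 CPM in the KO libraries and 12031 to 17514 CPM in the Ctrl libraries, the 13 progenitor genes at 1215 to 1906 and 1258 to 2125 CPM in KO and Ctrl libraries, and the 7 astrocyte markers at 338 to 635 and 263 to 618 CPM in KO and Ctrl libraries. The 8 oligodendrocyte lineage markers summed to 678 to 1051 CPM in the KO libraries and 867 to 2476 CPM in the Ctrl libraries, with Ctrl 6 the highest. The 6 choroid plexus and ependymal markers summed to 212 CPM in KO 5 and to at most 9.65 CPM in any Ctrl library. The marker lists of microglia and blood reached at most 9.87 and 5.49 CPM in sum in any library.

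Of the 10 genes, Celf4, Elavl2, Rbfox3 and Nova1 rose in the KO libraries, none fell and 6 did not pass the test. Among all 14104 genes tested, 4.42% were called, 2.68% higher and 1.74% lower. Celf4 rose 2.38-fold, Elavl2 2.50-fold, Rbfox3 2.35-fold and Nova1 1.95-fold. For these 4 genes and for Elavl4, every KO library lay above every Ctrl library, a pattern that 2.89% of all genes tested showed. The median log2 fold change of the 10 was 0.39, beside -0.020 over all genes tested. In the Celf, Elavl, Rbfox and Nova families a gene that rose stood beside a close relative whose groups overlapped. No gene of the 10 had all KO libraries below all Ctrl libraries, as 2.03% of all genes tested did. As these are bulk libraries, more cells that use a gene and more of its RNA per cell cannot be told apart. With the Y-linked level as a covariate 1 of the 10 was past the threshold, where 1.31% of all genes were called, and among the libraries without Y-linked counts, 5 KO and 2 Ctrl, 3 of the 10 were, where 1.46% were called.

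**Figure D1:**
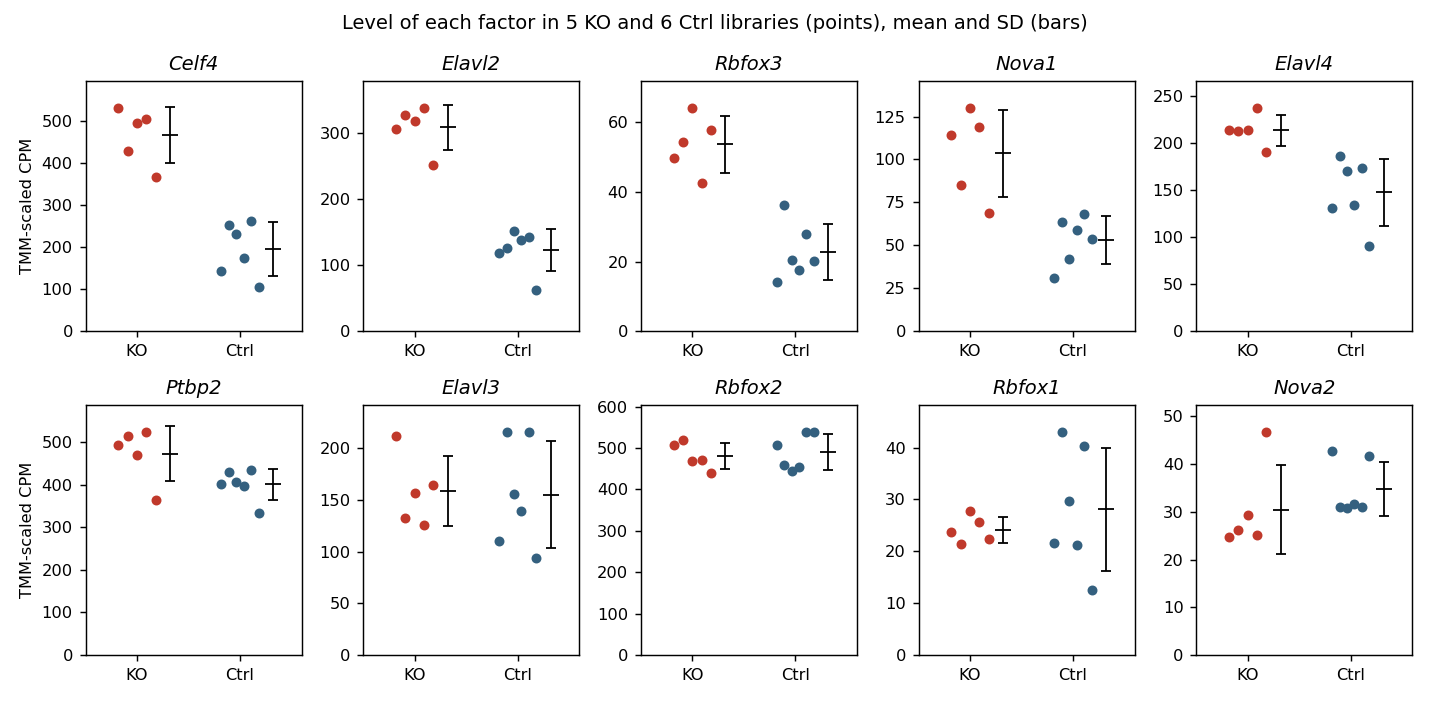
Each panel plots the TMM-scaled CPM of 1 gene (vertical axis, from 0) in the 5 KO libraries (left, red) and the 6 Ctrl libraries (right, blue), with the mean and SD of each group as bars. In the top row Celf4, Elavl2, Rbfox3, Nova1 and Elavl4 have all KO points above all Ctrl points, with the narrowest gap for Nova1 (68.9 CPM in the lowest KO library, 68.1 CPM in the highest Ctrl library), and the 5 genes of the bottom row have groups that overlap.

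Celf4 (chromosome 18, 25477632 to 25754157, minus strand, GRCm38; ENSMUSG00000024268) encodes a CELF family protein that binds many mRNAs of synaptic function in neurons. It had 530.2, 429, 495, 504 and 367 CPM in KO libraries 1 to 5, while the 6 Ctrl libraries had their lowest at 105, median 203 and highest at 262 CPM. The lowest KO library, KO 5, still stood above the highest Ctrl library, Ctrl 5. The means were 465 ± 66.2 CPM in the KO libraries and 195 ± 63.8 CPM in the Ctrl libraries (SD, n = 5 and 6; log2 fold change 1.25, SE 0.203, adjusted p = 0.00186, edgeR). Among the libraries without Y-linked counts the log2 fold change was 1.10 (adjusted p = 0.0192), and with the Y-linked level as a covariate the call was lost (1.16, adjusted p = 0.0954).

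The neuronal Elavl genes were split. Elavl2 (chromosome 4, 91250763 to 91400785, minus strand; ENSMUSG00000008489), which encodes HuB, had 307, 328, 319, 339 and 253 CPM in KO libraries 1 to 5, and in the Ctrl libraries its lowest at 62.8, median 132 and highest at 151 CPM. The 2 groups did not overlap, and the lowest Ctrl value, that of Ctrl 6, was far below the other 5, which began at 119 CPM. Elavl2 had the largest log2 fold change of the 10 genes (log2 fold change 1.32, SE 0.178, adjusted p = 4.34e-04, edgeR). Its call held in each of the 11 fits that left out 1 library, with log2 fold changes from 1.18 to 1.39, without Ctrl 6 and KO 5 together (1.25, adjusted p = 6.03e-06), among the libraries without Y-linked counts (1.15, adjusted p = 0.00352) and with the Y-linked covariate (1.19, adjusted p = 0.0434).

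Elavl4 (chromosome 4, 110203722 to 110351909, minus strand; ENSMUSG00000028546) encodes HuD, which stabilises mRNAs of axon growth such as that of Gap43. Its KO libraries 1 to 5 had 213, 213, 213, 237 and 190.1 CPM, and its Ctrl libraries had their lowest at 90.6, median 152 and highest at 185 CPM. The KO libraries all lay above the Ctrl libraries, though by less than 5 CPM at the nearest pair, and the log2 fold change of 0.53 (SE 0.156) did not pass the threshold (adjusted p = 0.0712, edgeR). It passed with DESeq2 (adjusted p = 0.0235), which called 8.02% of the genes it tested, without Ctrl 2 (adjusted p = 0.0487) and without Ctrl 6 and KO 5 (adjusted p = 0.0454). Elavl3 (chromosome 9, 22015005 to 22052023, minus strand; ENSMUSG00000003410), which encodes HuC, an early pan-neuronal protein, had 211, 133, 157, 125 and 164 CPM in KO libraries 1 to 5. Its Ctrl libraries had their lowest at 94.1, median 148 and highest at 216 CPM, so the Ctrl range contained that of the KO libraries (log2 fold change 0.027, SE 0.212, adjusted p = 0.966). The difference was small, and its sign turned in 4 of the 11 fits that left out a library (log2 fold changes from -0.099 to 0.15).

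The Rbfox genes also differed from one another. Rbfox3 (chromosome 11, 118489762 to 118911597, minus strand; ENSMUSG00000025576) had 49.8, 54.4, 64.2, 42.5 and 57.7 CPM in KO libraries 1 to 5, and in the Ctrl libraries its lowest at 14.1, median 20.4 and highest at 36.3 CPM. The groups did not overlap, and the KO mean was 53.7 ± 8.16 CPM where the Ctrl mean was 22.8 ± 8.05 CPM (SD, n = 5 and 6; log2 fold change 1.23, SE 0.219, adjusted p = 0.00370, edgeR). The call held among the libraries without Y-linked counts (1.24, adjusted p = 0.0392) and was lost with the Y-linked covariate (1.29, adjusted p = 0.0912). Rbfox2 (chromosome 15, 77078990 to 77307004, minus strand; ENSMUSG00000033565), which is also used outside the nervous system, had 508, 519, 468, 471 and 440.3 CPM in KO libraries 1 to 5 and in the Ctrl libraries its lowest at 443, median 483 and highest at 540.0 CPM. These ranges were nearly the same, and with an SE of 0.0879 the log2 fold change of -0.028 was the most precisely measured of the 10 (adjusted p = 0.916). Rbfox1 (chromosome 16, 5885355 to 7411526, plus strand; ENSMUSG00000008658), the family member of mature neurons and muscle, had 23.7, 21.3, 27.7, 25.6 and 22.4 CPM in KO libraries 1 to 5, while its Ctrl libraries had their lowest at 12.6, median 25.6 and highest at 43.1 CPM. Its KO libraries lay close together, within 1.30-fold from lowest to highest, inside a Ctrl range of 3.43-fold (log2 fold change -0.22, SE 0.268, adjusted p = 0.743).

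Nova1 (chromosome 12, 46694517 to 46818929, minus strand; ENSMUSG00000021047), a regulator of exons in inhibitory synapse mRNAs, had 114, 85.1, 130.1, 119 and 68.9 CPM in KO libraries 1 to 5. In the Ctrl libraries it had its lowest at 31.0, median 56.3 and highest at 68.1 CPM. KO 5 and KO 2 were the lowest of the KO libraries, and KO 5 lay less than 1 CPM above Ctrl 5 (log2 fold change 0.96, SE 0.208, adjusted p = 0.0141, edgeR). Among the libraries without Y-linked counts the log2 fold change was 0.71 (adjusted p = 0.253), where the 2 Ctrl libraries, Ctrl 4 and Ctrl 5, stood at 59.1 and 68.1 CPM, and with the Y-linked covariate it was 0.72 (adjusted p = 0.349). Nova2 (chromosome 7, 18925888 to 18965319, plus strand; ENSMUSG00000030411), the Nova gene of neocortical development, had 24.7, 26.2, 29.2, 25.1 and 46.8 CPM in KO libraries 1 to 5 and in the Ctrl libraries its lowest at 30.8, median 31.4 and highest at 42.8 CPM. KO 5 was the highest of all 11 libraries and the other 4 KO libraries were below every Ctrl library (log2 fold change -0.19, SE 0.194, adjusted p = 0.679). Without KO 5 the log2 fold change was -0.41 (adjusted p = 0.210, edgeR).

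Ptbp2 (chromosome 3, 119718742 to 119784466, minus strand; ENSMUSG00000028134) had 492, 514, 469, 525 and 363 CPM in KO libraries 1 to 5, and in the Ctrl libraries its lowest at 332, median 403 and highest at 435 CPM. Of the KO libraries, 4 exceeded every Ctrl library and KO 5 was below 5 of the 6 Ctrl libraries (log2 fold change 0.24, SE 0.108, adjusted p = 0.263, edgeR). Ptbp1, which in progenitors represses an exon whose skipping sends the Ptbp2 transcript to decay, had 97.5 to 119.7 CPM in the KO libraries and 107 to 138 CPM in the Ctrl libraries (log2 fold change -0.14, SE 0.111, adjusted p = 0.565). Exons of Ptbp1 overlap Plppr3, a more abundant gene on the opposite strand, over 251 bases, so its count is uncertain where counting ignores strand.

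**Figure D2:**
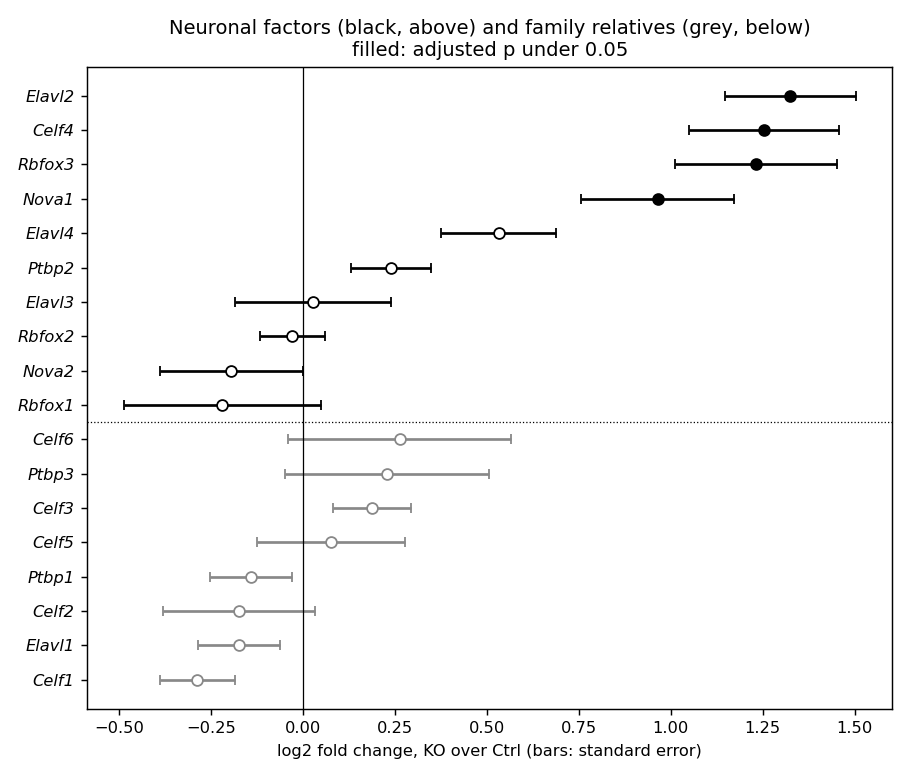
The horizontal axis gives the log2 fold change of KO over Ctrl with its standard error as bars, for the 10 neuronal factors (black, upper block) and 8 relatives of the same families (grey, lower block), and filled points passed an adjusted p of 0.05. Only Elavl2, Celf4, Rbfox3 and Nova1 are filled, between 0.96 and 1.32, and the 8 relatives lie between -0.29 and 0.26.

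None of the 8 other genes of these families passed the test. Elavl1, the ubiquitous Elavl gene (HuR), had 168 to 245 CPM in the KO libraries and 215 to 270.3 CPM in the Ctrl libraries (log2 fold change -0.17, SE 0.110). Celf1, which is used in many tissues, had 234 to 316 CPM in the KO libraries and 291 to 368 CPM in the Ctrl libraries, the largest difference among the 8 (log2 fold change -0.29, SE 0.102, adjusted p = 0.143). Celf2 had 268 to 354 and 186 to 478 CPM in KO and Ctrl libraries, with a log2 fold change of -0.17. The brain-enriched Celf3 and Celf5 had log2 fold changes of 0.19 and 0.076, and Celf6 and Ptbp3 of 0.26 and 0.23. Exons of Elavl1 overlap Ccl25 on the opposite strand over 204 bases. The median over the 8 was -0.033.

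Because a ratio of 2 genes within a library is free of depth and composition scaling, it also tests whether 2 relatives moved by different amounts. The log2 ratio of Celf4 to Celf2 was 0.58 ± 0.0731 in the KO libraries and -0.84 ± 0.0763 in the Ctrl libraries (SD, n = 5 and 6; difference 1.41, exact permutation p = 0.00433, 0.00779 adjusted over the 9 ratios). It varied little within either group: it ran from 0.46 to 0.65 in the KO libraries and from -0.91 to -0.70 in the Ctrl libraries, although the level of Celf4 alone spanned 2.50-fold among the Ctrl libraries. A pseudocount of 0.5 CPM was used, tests are two-sided over all 462 assignments of the 11 libraries to 5 and 6, and 0.00433 is the smallest p they can give. The 9 ratios were chosen with earlier results of these data known. Celf2, with a log2 fold change of -0.17, was the only relative set against Celf4, and the difference depends on that choice. Celf1 was at -0.29, while Celf3, Celf5 and Celf6 were at 0.19, 0.076 and 0.26.

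**Figure D3:**
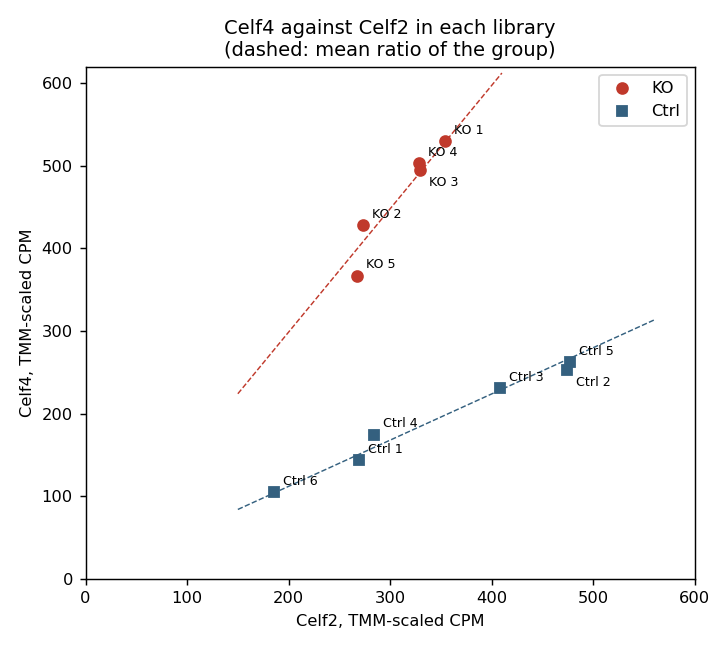
Celf4 (vertical axis) is plotted against Celf2 (horizontal axis), both in TMM-scaled CPM, for the 5 KO libraries (red circles) and the 6 Ctrl libraries (blue squares), and each dashed line has the mean ratio of its group. The Ctrl libraries lie along 1 line from Ctrl 6 (105 CPM of Celf4) to Ctrl 5 (262 CPM), and the KO libraries along a steeper one, from KO 5 (367 CPM) to KO 1 (530.2 CPM).

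Within the Elavl genes the log2 ratio of Elavl2 to Elavl4 was 0.53 ± 0.0807 in the KO libraries and -0.27 ± 0.232 in the Ctrl libraries (difference 0.80, exact permutation p = 0.00433, 0.00779 adjusted over the 9 ratios). The ratio of Elavl2 to Elavl3 was 0.98 ± 0.399 in the KO libraries and -0.32 ± 0.374 in the Ctrl libraries (difference 1.30, exact permutation p = 0.00433, 0.00779 adjusted over the 9 ratios). Elavl2 thus rose beyond both of its neuronal relatives. The ratio of Elavl3 to Elavl4 was lower in the KO libraries, -0.45 ± 0.360 there and 0.046 ± 0.206 in the Ctrl libraries, with groups that overlapped (difference -0.50, exact permutation p = 0.0216, 0.0278 adjusted over the 9 ratios). That call was lost in 6 of the 11 tests without 1 library, with Ctrl 2, Ctrl 4, Ctrl 6, KO 2, KO 3 or KO 4 left out (adjusted p of 0.051 or 0.0612).

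Rbfox3 rose against both relatives. Its log2 ratio to Rbfox1 was 1.13 ± 0.257 in the KO libraries and -0.25 ± 0.469 in the Ctrl libraries (difference 1.37, exact permutation p = 0.00433, 0.00779 adjusted over the 9 ratios), and its log2 ratio to Rbfox2 was -3.16 ± 0.261 in the KO libraries and -4.46 ± 0.499 in the Ctrl libraries (difference 1.30, with the same exact and adjusted p). For Rbfox1 against Rbfox2 the difference did not pass (-0.077, exact permutation p = 0.809). The ratio of Nova1 to Nova2 was 1.75 ± 0.708 in the KO libraries and 0.56 ± 0.586 in the Ctrl libraries (difference 1.19, exact permutation p = 0.0173, 0.0260 adjusted over the 9 ratios), with KO 5 inside the Ctrl range, and it lost its call without KO 2, KO 3 or KO 4 (adjusted p = 0.0571 in each). The ratio of Ptbp2 to Ptbp1 was 2.05 ± 0.290 in the KO libraries and 1.68 ± 0.270 in the Ctrl libraries and did not pass (difference 0.37, exact permutation p = 0.0563, 0.0633 adjusted over the 9 ratios). It passed without KO 5 (0.48, adjusted p = 0.0122) and without Ctrl 5 (0.43, adjusted p = 0.0446).

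**Figure D4:**
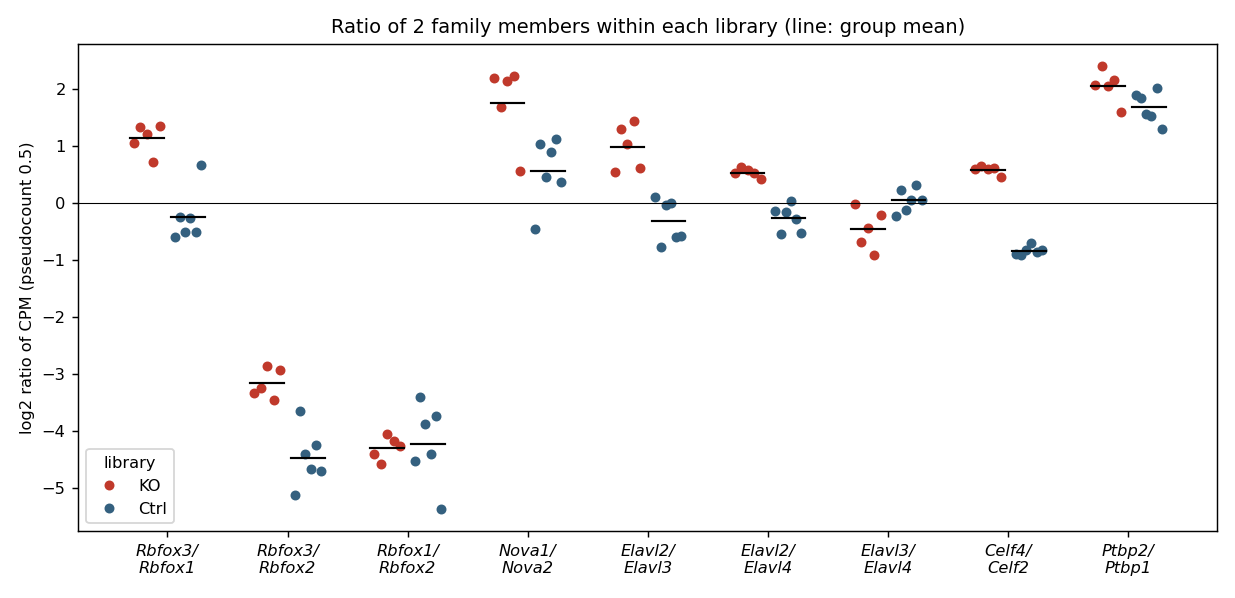
Each point is the log2 ratio of the CPM of 2 family members in 1 library (vertical axis), with KO libraries in red on the left and Ctrl libraries in blue on the right of each pair, and a line at the group mean. The groups lie apart for Rbfox3 over Rbfox1, Rbfox3 over Rbfox2, Elavl2 over Elavl3, Elavl2 over Elavl4 and Celf4 over Celf2, and overlap for the other 4 pairs.

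Per kilobase of exon, the 10 genes covered a wide range of levels, and their order differed between the groups. Rbfox2 was highest in both, at 59.1 ± 3.93 CPM per kb in the KO libraries and 60.3 ± 5.32 CPM per kb in the Ctrl libraries (SD). In the KO libraries Celf4 came next, at 54.2 ± 7.72 CPM per kb, within the spread of Ptbp2 at 51.5 ± 7.08. In the Ctrl libraries Ptbp2 was second, at 43.6 ± 4.00 CPM per kb, and Celf4 had rank 4, at 22.7 ± 7.43, close to Elavl4 at 27.4 ± 6.60 and Elavl3 at 22.5 ± 7.49. Elavl2 stood at 37.2 ± 4.05 CPM per kb in the KO libraries, beside Elavl4 at 39.6 ± 3.08, and at 14.8 ± 3.83 in the Ctrl libraries, below Elavl3. Nova1, Rbfox3, Rbfox1 and Nova2 were the 4 lowest in both groups. Rbfox3 had rank 8 of the 10 in the KO libraries, at 9.23 ± 1.403 CPM per kb, and rank 10 in the Ctrl libraries, at 3.92 ± 1.38, within the spread of Nova2 there at 4.16 ± 0.682.

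The ratio of the highest to the lowest library was smaller among the KO libraries than among the Ctrl libraries for 8 of the 10 genes, all but Nova2 and Ptbp2. Such a ratio tends to grow with the number of libraries, which was 5 for KO and 6 for Ctrl. The SD relative to the mean was smaller in the KO libraries for the same 8 genes. How many of all genes tested behave so was not counted, so this is not shown to be particular to these factors. Over all genes tested, the mean Spearman correlation of a library with the others of its group was 0.959 to 0.971 for KO. For Ctrl it was 0.948 to 0.965. Ctrl 6 was the lowest Ctrl library for 6 genes, and the highest was Ctrl 2 for 4 genes and Ctrl 5 for 4 others. KO 5 was the lowest KO library for 6 genes, namely Celf4, Elavl2, Elavl4, Nova1, Ptbp2 and Rbfox2, and the highest for Nova2. The summed levels of the family relatives and of the general splicing factors, lists in which no gene passed, were likewise lowest in KO 5 among the KO libraries and in Ctrl 6 among the Ctrl libraries. Ctrl 6 also had the fewest genes with counts, 16836, and the lowest mean correlation with its group, 0.948. Of the counts of KO 5, 12.2% fell on the gene Gm42418, beside 6.25 to 8.73% in the other KO libraries. Whether these traits bear on the low values was not tested. Without Ctrl 6 and KO 5 together 5 of the 10 genes were past the threshold, all higher, where 4.44% of all genes were called.

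The promoter windows of the genes were searched for CACCTG, a sequence that Zeb2 is known to bind through its zinc fingers, on both strands. RefSeq windows of the 250 bases before a transcription start were at hand for 8 of the 10 genes, 17 windows in all and some of them overlapping. Rbfox3, Elavl3 and Elavl4 had the motif in at least 1 window, among them 1 gene that rose and 2 that did not pass. By window, 4 of the 17 hold it, and 17.2% of the 32851 windows of that length over all genes do. The 2 Elavl4 windows that hold it overlap and share 1 site. The 5-base core CACCT, which every CACCTG contains, was in 8 of the 17 windows and in 46.0% of all. Overlapping windows of Elavl2 and of Elavl4 share a core site, which is counted in each. A match is a description of the letters and not evidence of binding. The windows below lie on the minus strand of GRCm38.p6, overlap no annotated exon and are written 5′ to 3′, with the motif in capitals. They show the single Rbfox3 window, where the last base of the motif is 9 bases before the start and which lies inside an intron of longer Rbfox3 transcripts, the single Elavl3 window, where it is 112 bases before the start, and 1 of the 6 windows of Elavl2, the gene with the largest change, which has no CACCTG and holds the core once, in lower case.
Rbfox3 (chr11:118761042-118761291): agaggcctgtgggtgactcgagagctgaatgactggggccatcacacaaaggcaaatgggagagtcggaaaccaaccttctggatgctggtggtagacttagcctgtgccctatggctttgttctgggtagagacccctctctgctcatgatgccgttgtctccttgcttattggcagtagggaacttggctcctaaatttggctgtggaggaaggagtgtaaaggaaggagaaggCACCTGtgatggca
Elavl3 (chr9:22052024-22052273): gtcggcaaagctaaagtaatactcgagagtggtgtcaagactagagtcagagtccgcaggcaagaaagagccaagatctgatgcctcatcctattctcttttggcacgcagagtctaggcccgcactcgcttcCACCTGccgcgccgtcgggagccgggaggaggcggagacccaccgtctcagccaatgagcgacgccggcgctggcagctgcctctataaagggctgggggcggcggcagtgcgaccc
Elavl2 (chr4:91376497-91376746): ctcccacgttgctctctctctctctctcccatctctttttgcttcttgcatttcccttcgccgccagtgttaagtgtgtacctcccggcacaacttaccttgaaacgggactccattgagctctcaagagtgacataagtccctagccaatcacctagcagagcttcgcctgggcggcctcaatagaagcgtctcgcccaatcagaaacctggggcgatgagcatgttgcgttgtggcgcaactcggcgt

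Other genes of RNA processing were read from the same fit, in which 4.42% of all genes were called. Of 20 further tissue-regulated splicing factors, such as the Mbnl, Khdrbs, Srrm and Msi genes, 16 were tested, 1 fell and none rose, with a median log2 fold change of -0.11. The gene that fell was Rbm24, a muscle splicing factor at a low level, which had 0 to 1.38 CPM in the KO libraries and 2.51 to 6.80 CPM in the Ctrl libraries (log2 fold change -2.66, SE 0.713, adjusted p = 0.0474, edgeR). Its call did not hold when any of Ctrl 1 to Ctrl 5 or KO 2 to KO 4 was left out, which is 8 of 11 fits, and over the 11 the log2 fold change ran from -3.35 to -2.35. Among the libraries without Y-linked counts it was -2.37 (adjusted p = 0.432). Of 28 general splicing factors, SR proteins, hnRNPs and spliceosome subunits, all were tested and none passed (median -0.044). Hnrnpa2b1 and Hnrnpk, the most abundant of them, had log2 fold changes of -0.096 and -0.11, and exons of Hnrnpk overlap Rmi1 on the opposite strand over 330 bases. Of 20 genes of mRNA transport and translational control 16 were tested and none passed (median 0.026), with Caprin1 and Stau1, the most abundant, at -0.0076 and -0.13.

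**Figure D5:**
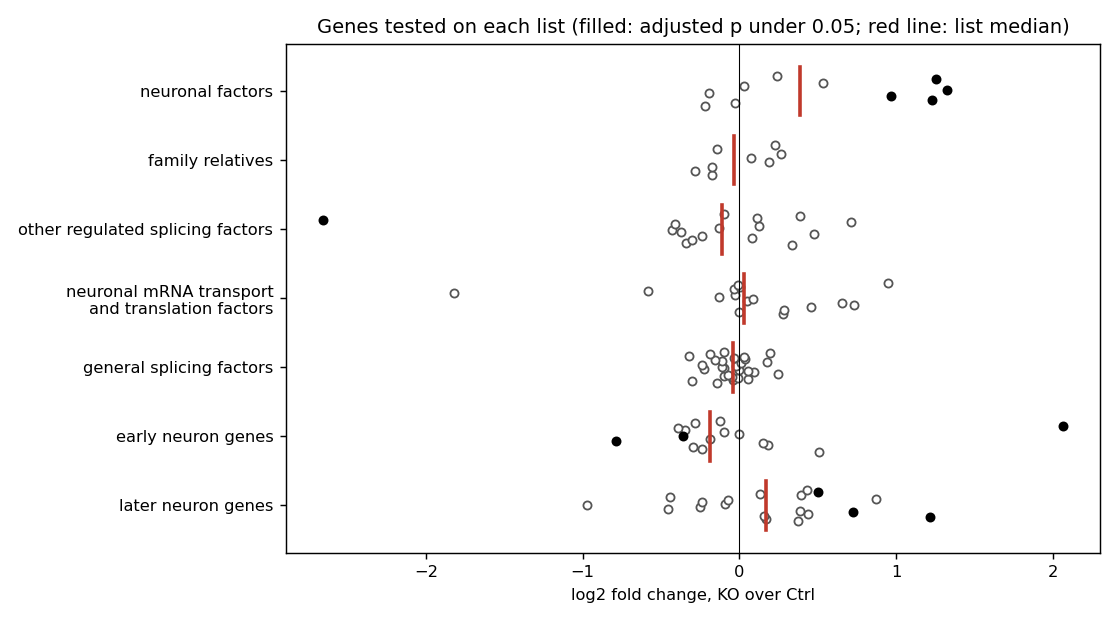
Each point is the log2 fold change of KO over Ctrl (horizontal axis) of 1 tested gene, by list (rows), filled where the adjusted p was under 0.05, with the list median as a red line. The neuronal factors have 4 filled points, all near or above 1. The later neuron genes have 3, all higher, the early neuron genes 1 higher and 2 lower, and the other regulated splicing factors 1 lower. The family relatives, the general splicing factors and the mRNA transport and translation factors have none. The relatives include the brain-enriched Celf3 and Celf5, and members and lists were chosen with earlier results of these data known.

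Of 13 genes whose mRNAs are known targets of these families, 3 rose, none fell and 10 did not pass (median 0.20). Among all genes tested 4.42% were called, 2.68% higher. This list too was chosen with earlier results of these data known. Dab1, an adaptor of the reelin pathway whose exons Nova2 regulates in the developing mouse cortex, had 194 to 305 CPM in the KO libraries and 40.7 to 61.4 CPM in the Ctrl libraries (log2 fold change 2.28, SE 0.139, adjusted p = 2.62e-07). Dcc, a netrin receptor gene with Nova-regulated exons, had 59.6 to 95.8 and 21.2 to 39.2 CPM in KO and Ctrl libraries (log2 fold change 1.23, SE 0.193, adjusted p = 0.00140). Ank3, which encodes ankyrin-G of the axon initial segment and has Rbfox-regulated exons, had a log2 fold change of 0.72 (adjusted p = 0.0420). It passed in 2 of the 11 fits that left out a library, those without Ctrl 2 and without Ctrl 5, and not among the libraries without Y-linked counts (0.68, adjusted p = 0.251). Whether the splicing of these mRNAs differed was not measured by counts per gene.

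The genes of neuronal maturation did not move as 1 block. Of 20 genes of later neurons, mostly of synapses and the cytoskeleton, 19 were tested, 3 rose and none fell (median 0.17), and 16 did not pass. Over all genes tested, 2.68% were higher and 1.74% lower. Syt1, the calcium sensor gene of synaptic vesicle release, had 181 to 245 CPM in the KO libraries and 70.5 to 119 CPM in the Ctrl libraries (log2 fold change 1.21, SE 0.137, adjusted p = 9.72e-05). Syn1 and Vamp2, which encode synaptic vesicle proteins, rose by 0.72 and 0.50 on the log2 scale (adjusted p = 0.0167 and 0.0335). The call of Vamp2 was lost in 6 of the 11 fits without 1 library, with Ctrl 1, Ctrl 2, Ctrl 3, Ctrl 4, KO 3 or KO 5 left out (log2 fold changes of 0.38 to 0.52). Among the libraries without Y-linked counts the calls of Syn1 (0.90, adjusted p = 0.116) and Vamp2 (0.55, adjusted p = 0.261) were lost. The list summed to 4392 to 5035 CPM in the KO libraries and 3845 to 4594 CPM in the Ctrl libraries.

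Of 15 genes of young neurons 1 rose, 2 fell and 12 did not pass (median -0.19), where 4.42% of all genes tested were called. Nrep, a gene of migrating neurons, had 1381 to 1796 CPM in the KO libraries and 2083 to 4059 CPM in the Ctrl libraries (log2 fold change -0.79, SE 0.153, adjusted p = 0.00685). Cd24a, a surface protein gene of neuroblasts, had a log2 fold change of -0.36 (adjusted p = 0.0493). It passed in 2 of the 11 fits that left out a library, those without Ctrl 6 and without KO 2, and not among the libraries without Y-linked counts (-0.43, adjusted p = 0.190). Neurod1 rose (log2 fold change 2.07, SE 0.427, adjusted p = 0.0107), and its call was lost among the libraries without Y-linked counts (2.07, adjusted p = 0.136). Of 13 progenitor genes Pax6 rose (log2 fold change 1.21, adjusted p = 1.39e-04), Vim fell (-1.15, adjusted p = 3.87e-04) and 11 did not pass. The median over the 13 was -0.37, and 3 of them had positive log2 fold changes.

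Markers of neuron classes moved with the same groups. The share called over all genes tested was 4.42%. Of 12 markers of interneurons from the medial ganglionic eminence (MGE), 6 rose, 1 fell and 5 did not pass, and their summed level was 2885 to 4115 CPM in the KO libraries and 664 to 1021 CPM in the Ctrl libraries. Of 13 markers of striatal projection neurons 6 fell, 1 rose and 6 did not pass, with sums of 432 to 661 CPM in the KO libraries and 761 to 2254 CPM in the Ctrl libraries. Of these striatal markers 7 were past the threshold in all, and 4 were without Ctrl 2 or without KO 4. For both lists every KO library lay apart from every Ctrl library, as it did for Celf4, Elavl2, Rbfox3, Nova1 and Elavl4. The part of these cell classes in the levels of the neuronal factors was not tested. No gene of the lists of astrocytes (7 tested), excitatory neurons (5 tested), microglia (1 tested), vascular cells (3 tested), blood (2 tested) or ependyma and choroid plexus (1 tested) passed, and of the 8 oligodendrocyte lineage markers 1 rose, 1 fell and 6 did not pass. All 5 excitatory neuron markers tested had positive log2 fold changes (median 1.02). That list summed to 19.6 to 77.3 CPM in the KO libraries and 7.94 to 55.5 CPM in the Ctrl libraries. The number of oligodendrocyte lineage markers past the threshold was 2 in all and ran from 0, without KO 3 or KO 4, to 4, without Ctrl 5, and was 1 without Ctrl 3, KO 1 or KO 2.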

How the data were processed

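Counts per Ensembl gene were deposited by the authors as 1 table of raw read counts, with a column for each library. Per the submitters' processing notes the tools were TopHat2 2.0.13 and featureCounts 1.4.6, with mm10 and GRCm38 as builds. RNA came from papain-dissociated, sorted cells and libraries followed the TruSeq protocol, per the labels' protocols. Not given in the sources used here are how strand and multi-mapping reads were handled and which annotation release was used. If strand was ignored, reads of genes that overlap in antisense are mixed, and paralogues could share reads.

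Symbols, coordinates and exon lengths came from GENCODE M21 (GRCm38), which named 37607 of 39179 identifiers, and promoter sequences from RefSeq (GRCm38.p6). The main test was edgeR 4.0.16 in R 4.3.3 (filterByExpr, TMM, robust quasi-likelihood fit, Benjamini-Hochberg over 14104 genes), with standard errors derived from the F statistic. Unless another test is named, adjusted p-values for a gene come from it. Family ratios used library-total CPM and exact permutation tests in Python 3.11.15, exon overlaps bedtools 2.31.1. No pair of replicates agreed within counting noise, as a library deposited more than once would (lowest chi-square over its degrees of freedom 13.7), which does not show that the libraries are biologically independent. On simulated counts with 200 changed genes of 14104 the test found 51% of 2-fold and 80% of 4-fold changes, with 5 false calls.

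Members, lists and ratios were chosen with earlier results of these data known. Named genes are the 10 members, 8 relatives, Zeb2, and from each other gene list up to 4 called genes of smallest adjusted p, or the 2 most abundant where none passed. Markers of cell classes, which that rule would name too, are given by counts and sums only. Alternatives were RLE, upper quartile and library-total scaling, no filter, a filter of CPM of at least 1 in 5 libraries, a fit without robust estimation, DESeq2 1.42.0, limma-voom (limma 3.58.1), leaving out each library or Ctrl 6 with KO 5, a replicate block, a Y-linked covariate, leaving out libraries with Y-linked counts, and leaving out the gene Gm42418. The ratios were repeated on TMM-scaled CPM and with a pseudocount of 1.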

Additional observations from a re-analysis of the deposited data

Results flagged for a closer look

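Each group of libraries was searched for a highest or lowest value far from the rest by Dixon's criterion, over 84 sets of values, where chance gives about 1 in 20, and 8 stood out. In KO 5 Nova2 stood at 46.8 CPM, above the other 4 KO libraries at 24.7 to 29.2 CPM. KO 5 also had the lowest summed level of the mRNA transport and translation genes, 1635 CPM, and the highest of the ependymal and choroid plexus markers, 212 CPM. The progenitor genes summed to 1906 CPM in KO 4, the highest of the KO libraries. In Ctrl 6 Elavl2 was lowest at 62.8 CPM and Ptbp2 at 332 CPM, far from the other 5 Ctrl libraries. The log2 ratio of Rbfox3 to Rbfox1 was highest there, at 0.67 where the next Ctrl library had -0.25, and the oligodendrocyte lineage markers summed to 2476 CPM.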

How the results depend on the processing

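Celf4, Elavl2, Rbfox3 and Nova1 kept their direction in all 24 alternatives and their calls in all 11 fits without 1 library. The number of the 10 genes past the threshold ran from 4 to 5 over those fits and was 1 with the Y-linked covariate, where Elavl2 remained. Lost calls were those of Rbfox3 (1.29), Celf4 (1.16) and Nova1 (0.72) with the Y-linked covariate and of Nova1 among libraries without Y-linked counts (0.71), in which 2 Ctrl libraries remain. Y-linked counts are found in Ctrl libraries alone, so sex is partly confounded with genotype. Elavl4 gained a call with DESeq2 (0.53) and without Ctrl 6 and KO 5 (0.46), and ran from 0.42 to 0.61 without 1 library. Over all genes 1109 were past the threshold with DESeq2, 218 among libraries without Y-linked counts and 185 with the Y-linked covariate, against 623, and 418 to 656 without 1 library; the cause was not tested. Among named genes signs changed for values near 0: Elavl3 was at -0.095 with the Y-linked covariate, -0.15 among libraries without Y-linked counts, -0.098 without Ctrl 6 and KO 5 and -0.099 to 0.15 without 1 library, Rbfox2 at 0.029 without Ctrl 6 and KO 5 and -0.056 to 0.00055 without 1 library, and Celf5 at -0.0060 to 0.17 without 1 library. With the Y-linked covariate the calls of Rbm24, Ank3, Nrep, Neurod1, Cd24a, Syn1 and Vamp2 were lost too, in the same direction. With the Y-linked covariate, and likewise among libraries without Y-linked counts, 4 striatal markers were past the threshold, against 7, and 0 oligodendrocyte lineage markers, against 2. DESeq2 called 5 of those oligodendrocyte lineage markers and the fit with no filter 1. In both Y-linked settings 1 later neuron gene was past the threshold, against 3. Caprin1 was at 0.0065 with no filter, 0.028 without Ctrl 6 and KO 5, 0.0030 without Gm42418 and -0.050 to 0.061 without 1 library.

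Library numbers did not pair the groups: the deviations of same-numbered libraries correlated at -0.16 to 0.023, and no KO library correlated best with the Ctrl library of its own number. With the replicate block, in 5 pairs, 421 genes were past the threshold against 623, Nova1 lost its call (0.98, adjusted p = 0.0759) and Elavl3 was at -0.069. The block also ended the calls of Neurod1 (1.80, adjusted p = 0.0609), Ank3 (0.66, adjusted p = 0.0591), Cd24a (-0.39, adjusted p = 0.121) and Rbm24 (-3.11, adjusted p = 0.0877). For the ratios, 5 pairs and the 5 against 2 libraries without Y-linked counts are too few to pass the adjusted threshold, so their p-values say nothing of stability. The pairs leave out Ctrl 6, and the mean difference over pairs is the difference of group means without Ctrl 6. Pairing itself therefore cannot change these differences of log2 ratios. In the pairs they were Rbfox3/Rbfox1 (1.56), Rbfox3/Rbfox2 (1.25), Nova1/Nova2 (1.15), Elavl2/Elavl3 (1.24), Elavl2/Elavl4 (0.75), Elavl3/Elavl4 (-0.50), Celf4/Celf2 (1.42). Among libraries without Y-linked counts they were Rbfox3/Rbfox1 (1.52), Rbfox3/Rbfox2 (1.29), Nova1/Nova2 (0.75), Elavl2/Elavl3 (1.28), Elavl2/Elavl4 (0.65), Elavl3/Elavl4 (-0.63), Celf4/Celf2 (1.36). Without 1 library Nova1/Nova2 ran from 0.99 to 1.49, Elavl3/Elavl4 from -0.61 to -0.38, Ptbp2/Ptbp1 from 0.28 to 0.48 and Rbfox1/Rbfox2 from -0.31 to 0.086.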
